A study of Mus musculus with 66 samples.

Results

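Tissue from the mid-colon was compared between mice killed 20 days after the start of a chemical injury of the colon and mice killed without injury. The comparison used the 7 mid-colon libraries of day 0 (mice 1 to 4) and day 20 (mice 17 to 19), out of 66 libraries from 19 mice. Samples were chosen by section and day alone, so no measured value decided which entered. All mice were C57Bl/6 and were bought at 6 weeks of age. The day 20 mice had drunk 3% dextran sulfate sodium (DSS) for 6 days from day 0, and the day 0 mice had drunk none. The libraries hold bulk mRNA from 1 section of 1 mouse each, after the muscle layer had been taken off. Different mice stood for the 2 days, and the labels give neither their age at death nor the hour of dissection. The effects of the injury, of age and of the occasion of killing cannot be told apart in this comparison.

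DSS strips and inflames the epithelium of the colon, which is rebuilt from the crypts once the agent is withdrawn. In the healthy mucosa, colonocytes at the surface take up sodium, chloride and water, while goblet and deep crypt secretory cells make mucus and crypt proteins. Macrophages, lymphocytes and plasma cells lie in the lamina propria below. Major histocompatibility complex (MHC) class II molecules, which show peptides to helper T cells, are carried by professional antigen-presenting cells and can be induced in epithelium.

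Expression was measured as TPM, the number of transcripts of a gene per 1000000 transcripts, a length-adjusted relative abundance. A change is given as the difference of the means of log2(TPM + 1), day 20 minus day 0, with its standard error (SE). Adding 1 shrinks the change of genes with low values. A gene was called when the Benjamini-Hochberg adjusted p of limma, computed over all 12116 genes with at least 1 TPM in at least 3 of the 7 libraries, was under 0.05. Of these genes 189 (1.56%) were called, 82 (0.677%) higher and 107 (0.883%) lower at day 20, and the median change over all tested genes was -0.05. The unadjusted p was under 0.05 for 2505 genes. For 17.2% of the tested genes the values of the 2 days did not overlap, 8.72% with every day 20 mouse higher and 8.45% with every day 20 mouse lower.

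The number of calls depended on single mice. Without mouse 1, 2 or 3 of day 0 it was 36, 33 or 34, and without mouse 4 it was 1200. Without mouse 17 of day 20 it was 31, without mouse 18 it was 109 and without mouse 19 it was 542. All 189 genes kept the sign of their change in each of these 7 fits. The same libraries had chosen these genes, so kept signs are no test of them. All 189 were called without mouse 4. In each of the 7 fits 14 of the 82 higher and 8 of the 107 lower genes were called. A further 36 higher and 57 lower genes were called only in the fits without mouse 4 and without mouse 19.

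Mice 4 and 19 had the libraries with the largest mitochondrial share of their groups. Mitochondrial genes took between 16.4% and 20.8% of the TPM in the 4 uninjured mice, and 21.4%, 9.19% and 28.5% in mice 17, 18 and 19. Immunoglobulin genes took at most 0.182% at day 0, 1.02% and 1.08% in mice 17 and 18, and 0.056% in mouse 19. Ribosomal protein genes took 8.73% to 9.74% at day 0 and 10.5% to 14.8% at day 20. The groups did not overlap in the ribosomal protein share. The exact two-sided permutation p was 0.0571, the smallest that 4 against 3 mice can give, so no such measure could pass 0.05. Because TPM is relative, the balance of rises and falls moved with the scaling. Higher genes were 43.4% of the calls as measured, 47.8% of 556 calls after scaling by a trimmed mean of ratios (TMM) and 57.4% of 204 calls with mitochondrial genes left out of the total. The read depth is unknown, since the values are not counts.

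**Figure D1:**
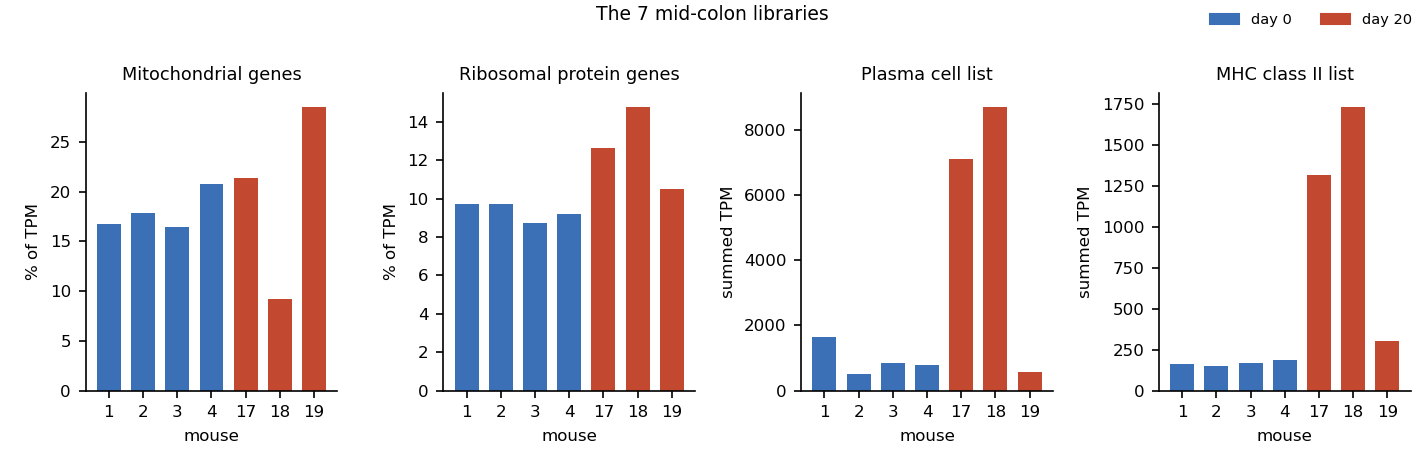
Library measures of the 7 mid-colon samples, 1 bar per mouse: the percent of TPM in mitochondrial and in ribosomal protein genes, and the summed TPM of the plasma cell and MHC class II gene lists. Mouse 19 has the largest mitochondrial share (28.5%) and, among the day 20 mice, the lowest plasma cell sum (573 TPM) and MHC class II sum (302 TPM).

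The sections held colonic tissue, as labelled. Genes of absorptive colonocytes summed to between 14970 and 18530 TPM at day 0 and to 7637, 8574 and 11440 TPM in mice 17, 18 and 19. The 12 squamous genes summed to 4.505 to 13.7 TPM at day 0 and to 28.4, 5.88 and 5.65 TPM in mice 17, 18 and 19. Only Krt13 (change 1.29, adjusted p 0.123), Krt14 (-0.04, adjusted p 0.968) and Krtdap (-0.04, adjusted p 0.98) passed the filter on low values, and none was called. The basal keratin Krt5 had a mean of 0.242 TPM at day 0 and 0.215 TPM at day 20.

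The largest rises at day 20 included Wfdc18, Serpina3n, Pla2g2a, H2-Eb1 and H2-Aa, and the largest falls Retnla, Sln and Fxyd4. The rule for naming genes took the 12 largest rises and the 12 largest falls among called genes with at least 5 TPM in the higher group and no overlap between the days.

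**Figure D2:**
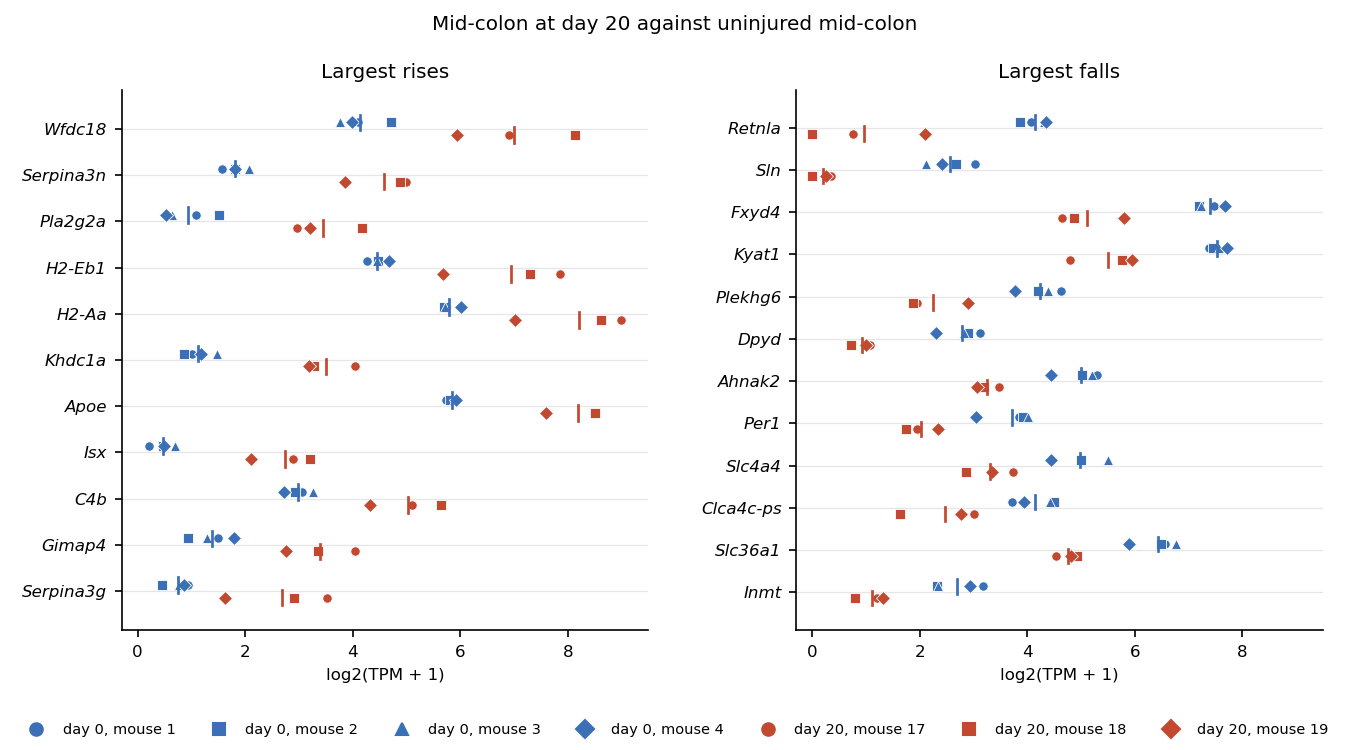
Level of 11 of the 12 largest rises and of the 12 largest falls in each mouse, on a log2(TPM + 1) axis. Points are single mice (4 at day 0, 3 at day 20) and vertical ticks are group means. Groups do not overlap because the choice of genes required it, and mouse 19 lies nearest to day 0 for several of the rises, such as H2-Aa (129 TPM) and Wfdc18 (60.3 TPM).

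Serpina3n, an acute-phase inhibitor of serine proteases (ENSMUSG00000021091, chr12:104406729-104414329, GRCm38), rose at day 20. Its level was 1.96, 2.50, 3.23 and 2.52 TPM in mice 1 to 4 and 30.8, 28.45 and 13.5 TPM in mice 17 to 19. Each day 20 mouse was above every day 0 mouse, and the change of 2.76 (SE 0.29, limma adjusted p 0.00458) was called in all 7 fits that left out a mouse. Serpina3g, a relative from the same cluster of serpin genes, had 0.922, 0.3665, 0.698 and 0.820 TPM at day 0 and 10.5, 6.53 and 2.09 TPM at day 20. Its change was 1.93 (SE 0.38, limma adjusted p 0.0395), with the mouse 19 value the lowest of the day. Serpina3g passed the filter on low values only through the day 20 libraries, so its difference is a description. Reads of such similar genes may be shared between them, so their separate levels are uncertain.

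Wfdc18, a small secreted protein with the disulfide core of whey acidic proteins, found in protease inhibitors (ENSMUSG00000000983, chr11:83709015-83711348), had 16.1, 25.1, 12.5 and 14.95 TPM at day 0. It had 120 TPM in mouse 17, 279.5 TPM in mouse 18 and 60.3 TPM in mouse 19, all above day 0. The change of 2.86 (SE 0.43, limma adjusted p 0.0159) was the largest rise among the named genes. Among the fits that left out a mouse, it was lost without mouse 3 (adjusted p 0.0557) and without mouse 17 (adjusted p 0.0677).

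Pla2g2a was the only called member of the list of epithelial antimicrobial defence, 17 of whose 21 genes were tested (background 0.677% higher). It encodes a secreted phospholipase of crypt cells, and C57BL/6 mice are known to carry a frameshift in it that prevents a working enzyme, so only the transcript is described. Its levels were 1.12, 1.87, 0.555 and 0.439 TPM at day 0 and 6.78, 17.0 and 8.19 TPM at day 20. The change was 2.50 (SE 0.34, limma adjusted p 0.0107), and it was called in all 7 fits that left out a mouse. Pla2g2a passed the filter on low values only with the day 20 libraries, where it was high, so its difference is a description. The list as a whole had a median change of 0.40. The most abundant members were Lypd8, which keeps bacteria away from the epithelium (27790.0 TPM on average at day 0, change -0.23, adjusted p 0.495), and the lectin Zg16 (change 0.01, adjusted p 0.983). The iron-binding protein Lcn2 (change 0.99, adjusted p 0.186) and the oxidase Duox2 (change 0.13, adjusted p 0.886) were not called either.

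Reg4, a lectin-like protein that marks deep crypt secretory cells (ENSMUSG00000027876, chr3:98222156-98236748), was higher at day 20. Mice 1 to 4 had 205.5, 197, 202 and 209.6 TPM, and mice 17 to 19 had 631, 719 and 523 TPM. The lowest day 20 mouse was thus far above the highest day 0 mouse, and the change of 1.60 (SE 0.16, limma adjusted p 0.00447) was called in all 7 fits that left out a mouse and in every alternative processing. It was the only called gene of the 6 on the deep crypt list (background 0.677% higher), whose median change was 0.56. The other members included Agr2 (change 0.33, adjusted p 0.456), Spink4 (1.23, adjusted p 0.172), Muc2 (0.79, adjusted p 0.207) and Mptx1 (-1.01, adjusted p 0.267).

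Isx, a homeobox factor of the intestine that represses uptake of vitamin A precursors (ENSMUSG00000031621), was close to absent at day 0, at 0.158, 0.379, 0.617 and 0.404 TPM. It reached 6.45, 8.245 and 3.295 TPM at day 20, a change of 2.27 (SE 0.28, limma adjusted p 0.00729). Isx passed the filter on low values only through the day 20 libraries, where it was high, so its difference is a description. Khdc1a, a gene of the KH-domain family, went from 1.02, 0.816, 1.78 and 1.25 TPM to 15.6, 8.73 and 8.13 TPM (change 2.38, SE 0.27, limma adjusted p 0.00568). Neither gene overlapped between the days, and both were called in all 7 fits that left out a mouse.

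Some genes of tissue macrophages were higher at day 20, among them those of complement C1q. Of the 15 macrophage and monocyte genes tested, 5 were called higher and none lower (background 0.677% higher). Of the 15 changes 14 were above 0, with a median of 0.94 beside -0.05 for all genes. Itgax, at a mean of 0.426 TPM at day 0, could pass the filter on low values only with day 20 libraries. The sign count and the median are therefore a description. The called members were Cd68, a lysosomal protein, Ms4a7, and C1qa, C1qb and C1qc, the 3 chains of complement C1q, which macrophages make. In bulk tissue, more cells of a type and more RNA per cell cannot be told apart.

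The C1qa level was 15.1, 20.1, 22.9 and 27.2 TPM at day 0 and 59.1, 65.0 and 46.0 TPM at day 20. All day 20 mice were above all day 0 mice, and the change was 1.39 (SE 0.23, limma adjusted p 0.0213). C1qb changed by 1.29 (SE 0.21, limma adjusted p 0.0197) and C1qc by 1.17 (SE 0.22, limma adjusted p 0.0362). Cd68 had 4.27, 5.72, 6.31 and 4.94 TPM at day 0 and 14.9, 13.2 and 18.0 TPM at day 20 (change 1.37, SE 0.21, limma adjusted p 0.0182). Here mouse 19 was the highest of the day 20 mice, unlike for the MHC class II genes. Ms4a7 went from 13.7, 9.59, 6.51 and 9.75 TPM to 28.6, 28.0 and 25.1 TPM (change 1.41, SE 0.24, limma adjusted p 0.022).

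Several defining macrophage genes were not called. Adgre1, which encodes the F4/80 antigen, changed by 0.49 (adjusted p 0.324), Csf1r, the receptor for macrophage colony-stimulating factor, by 0.63 (adjusted p 0.214), and the mannose receptor Mrc1 by 0.13 (adjusted p 0.80). Ctss, a protease of antigen-presenting cells, was the list's most abundant gene, at 719 TPM on average at day 0 and 639 TPM at day 20 (change -0.14, adjusted p 0.73). The chemokine receptor Ccr2 just missed the threshold (0.94, adjusted p 0.0504). The number of called members was 7 without mouse 4, 8 without mouse 19 and 3 without mouse 18, and 1, 0, 1 and 0 without mice 1, 2, 3 and 17. Of all tested genes 205 of 12034 were called higher without mouse 4, 375 of 12568 without mouse 19 and 52 of 12420 without mouse 18. For C1qa the adjusted p reached 0.0874 in the fit without mouse 17.

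Apoe, the lipid-carrying apolipoprotein that macrophages secrete (ENSMUSG00000002985, chr7:19696109-19699188), shared the smallest adjusted p of the comparison with Reg4, Fcer1g and Gm5822. Its level was 51.9, 54.9, 58.2 and 60.0 TPM in mice 1 to 4 and 359.6, 363 and 192 TPM in mice 17 to 19. The change of 2.36 (SE 0.23, limma adjusted p 0.00447) was called in every alternative processing. C4b, complement component 4, had 7.29, 6.58, 8.59 and 5.57 TPM at day 0 and 33.5, 49.1 and 19.1 TPM at day 20 (change 2.04, SE 0.30, limma adjusted p 0.0127). No mouse overlapped between the days for either gene. Of the fits that left out a mouse, only the one without mouse 17 lost the C4b call (adjusted p 0.0659).

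Not every gene tied to macrophages rose. Retnla, a secreted resistin-like protein known from alternatively activated macrophages (ENSMUSG00000061100, chr16:48842551-48844461), showed the largest fall of all named genes. It had 15.8, 13.6, 18.8 and 19.4 TPM at day 0, and 0.698 TPM in mouse 17, a listed 0 in mouse 18 and 3.29 TPM in mouse 19. The change was -3.19 (SE 0.41, limma adjusted p 0.00868), and of the fits that left out a mouse only the one without mouse 17 lost it (adjusted p 0.0505). Retnla passed the filter on low values only through the day 0 libraries, where it was high, so its difference is a description. Fabp4, a fatty acid carrier of adipocytes, macrophages and capillaries, rose from 2.67, 2.51, 3.82 and 5.83 TPM to 12.8, 9.98 and 10.7 TPM (change 1.42, SE 0.27, limma adjusted p 0.0346). It stood on the adipocyte list, whose 8 genes summed to 6.44 to 10.5 TPM at day 0 and to 15.1, 11.1 and 17.5 TPM in mice 17, 18 and 19, Fabp4 included. Of the others only Cidec was tested (3.84 TPM on average at day 0 and 2.83 TPM at day 20, adjusted p 0.528). Retn (0.51 and 0.32 TPM) and Plin4 (0.30 and 0.20 TPM) were low, Adipoq and Cfd had means under 0.04 TPM, and Plin1 and Lep were at 0 in all 7 mice. The part of adipocytes in the Fabp4 rise was not tested. The Fabp4 call held only without mouse 4 and without mouse 19, with an adjusted p of up to 0.117 in the other 5 fits.

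The MHC class II genes had the highest median change of any list with a called member. All 7 tested members had a change above 0 (median 2.10), and 2 of them, H2-Aa and H2-Eb1, were called higher (background 0.677%). These encode the alpha chain of I-A and the beta chain of I-E. The stretch of 250 bases before the start of each is shown because both hold the Y box of class II promoters (searched as CTGATTGG on both strands, shown in capitals). The letters are from RefSeq, GRCm38.p6, on the strand of the gene, at chr17:34287824-34288073 (minus strand) for H2-Aa and chr17:34305617-34305866 (plus strand) for H2-Eb1.
H2-Aa: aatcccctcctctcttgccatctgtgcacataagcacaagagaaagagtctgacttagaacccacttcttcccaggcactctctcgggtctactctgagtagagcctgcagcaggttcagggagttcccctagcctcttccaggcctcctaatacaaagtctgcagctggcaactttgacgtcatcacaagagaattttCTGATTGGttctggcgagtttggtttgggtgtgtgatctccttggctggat
H2-Eb1: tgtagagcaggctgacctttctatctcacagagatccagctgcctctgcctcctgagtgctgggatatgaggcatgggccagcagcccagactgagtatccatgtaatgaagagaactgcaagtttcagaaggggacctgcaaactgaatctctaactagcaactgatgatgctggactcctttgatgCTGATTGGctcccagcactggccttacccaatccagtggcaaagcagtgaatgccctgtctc

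The motif begins 51 bases before the start of H2-Aa and 62 bases before that of H2-Eb1. It was found in 2 of 6 promoters of the listed class II genes (33.3%) and in 3.83% of 32851 RefSeq promoters of the same length. A match in these letters is a description of the sequence and says nothing about binding.

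H2-Aa (ENSMUSG00000036594, chr17:34282744-34287823) had 52.1, 51.1, 51.3 and 63.8 TPM at day 0 and 508, 392 and 129 TPM at day 20. H2-Eb1 had 18.2, 21.1, 20.8 and 24.4 TPM at day 0 and 229.6, 156 and 49.98 TPM at day 20. For both, mice 17 and 18 were far above day 0 and mouse 19 lay between. The change of H2-Aa was 2.42 (SE 0.38, limma adjusted p 0.019) and that of H2-Eb1 was 2.48 (SE 0.41, limma adjusted p 0.022).

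The remaining class II genes had changes above 0 that missed the threshold, with mouse 19 close to day 0 for Cd74. Cd74, the invariant chain that accompanies class II molecules, had 33.9, 32.8, 40.8 and 38.3 TPM at day 0 and 273, 567 and 42.4 TPM at day 20 (change 2.34, SE 0.66, adjusted p 0.0944). H2-Ab1 changed by 2.11 (adjusted p 0.0746), and the peptide-loading subunits H2-DMa by 1.58 (adjusted p 0.0538), H2-DMb1 by 1.90 (adjusted p 0.0774) and H2-DMb2 by 1.71 (adjusted p 0.212). The activator of the class II genes, Ciita, was under the filter (mean 0.134 TPM at day 0 and 1.48 TPM at day 20). Without mouse 19 all 7 members were called (beside 375 of all 12568 tested genes called higher). Without mouse 4 there were 3 called members (beside 205 of all 12034). Without mouse 1, 2, 3, 17 or 18 none was called, and the adjusted p of H2-Aa then lay between 0.0509 and 0.0712.

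**Figure D3:**
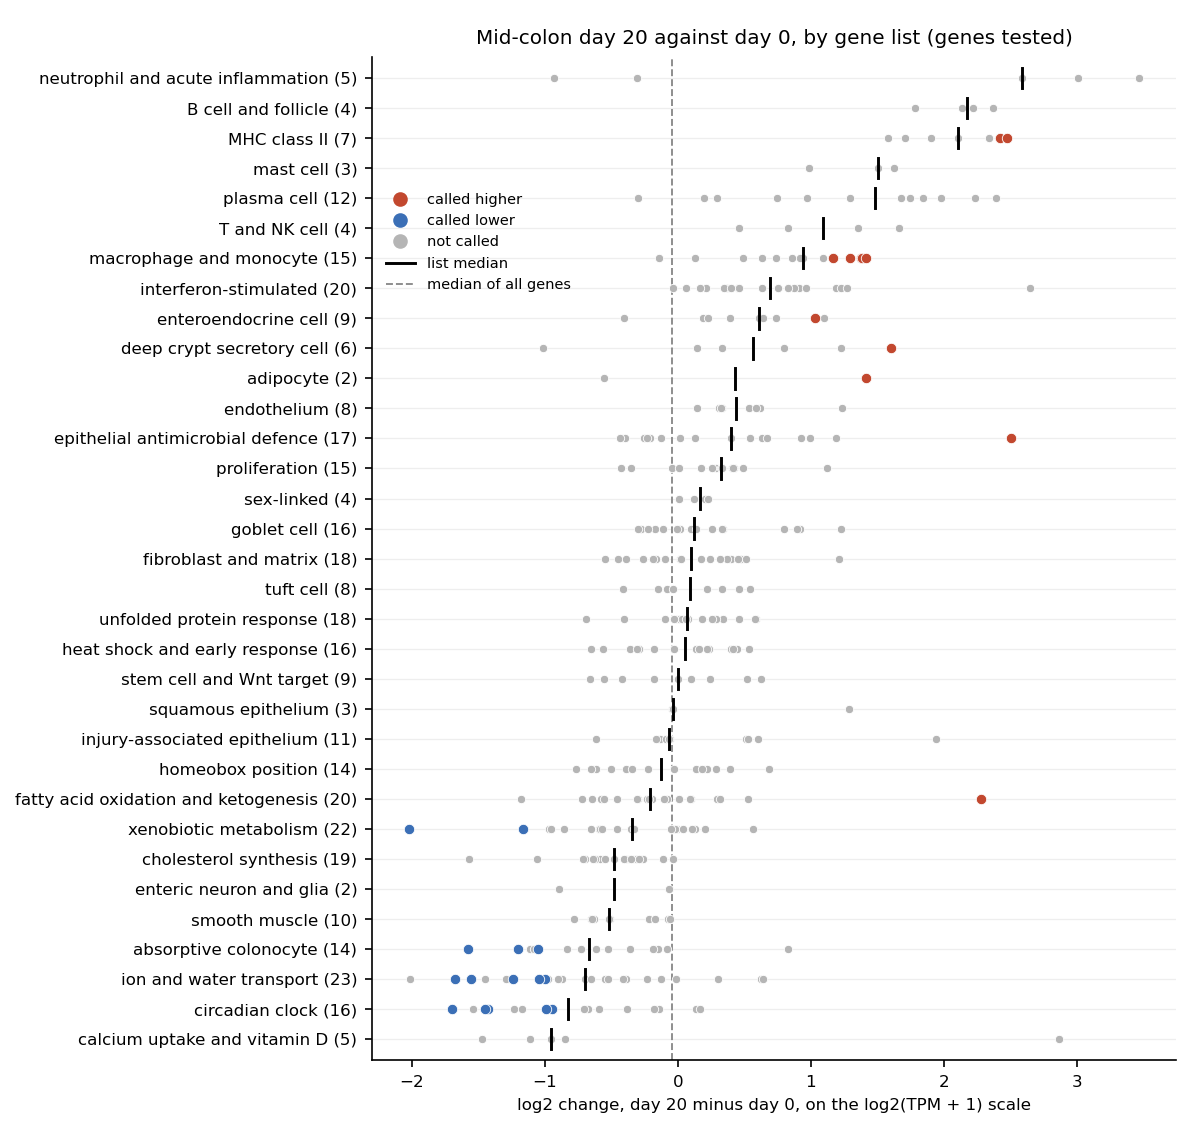
Change of each tested member of the 33 gene lists, in log2(TPM + 1), day 20 minus day 0. Coloured points are called members, black marks are list medians and the dashed line is the median of all 12116 genes (-0.05). Among lists with a called member, MHC class II (median 2.10, 2 called) and macrophage genes (0.94, 5 called) lie to the right. Clock (-0.83), ion and water transport (-0.70) and colonocyte genes (-0.67) lie to the left. Some lists without a called member lie further out, such as neutrophil (2.59), B cell (2.18) and calcium uptake (-0.95). Genes low at day 0 could pass the filter through the day 20 libraries alone, so medians of lists that hold them are a description.

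No listed lymphoid or plasma cell gene was called. The plasma cell genes summed to 521 to 1632 TPM at day 0, to 7118 and 8697 TPM in mice 17 and 18 and to 573 TPM in mouse 19. The B cell and follicle genes summed to 4.94 to 10.0 TPM at day 0 and to 226, 27.1 and 15.5 TPM in mice 17, 18 and 19, all above day 0. Igkc, the constant part of the kappa light chain, had 981, 196, 442 and 431 TPM at day 0 and 5062, 6055 and 283.5 TPM at day 20 (change 2.23, SE 0.93, adjusted p 0.209). Igha, the heavy chain of secretory IgA, had 253, 52.4, 97.2 and 108 TPM at day 0 and 1033, 1860.0 and 41.1 TPM at day 20 (change 1.98, SE 1.07, adjusted p 0.321). Mouse 19 lay within the range of day 0 for Igkc and below it for Igha. The plasma cell list had 12 tested genes with a median change of 1.48, and 12 called members without mouse 19. The B cell list (4 tested, median 2.18), the T and NK cell list (4 tested, median 1.09) and the mast cell list (3 tested, median 1.51) likewise had no called member, and 4, 6 and 4 without mouse 19. More genes could be called there than had been tested, because the filter on low values was applied anew without that mouse. In that fit 375 of 12568 tested genes were called higher. With all mice, a gene under 1 TPM in every day 0 mouse could pass the filter through the day 20 libraries alone. Its change is then positive, so the medians of these lists are a description.

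Among the rearranging segments of the immunoglobulin genes, 7 of 99 were called higher (background 0.677%), and 93 changes were above 0 (median 1.58). A segment under 1 TPM in every day 0 mouse could pass the filter on low values through the day 20 libraries alone. Its change is then positive, so counts over the segments are a description. In 13 of the 99 every day 20 mouse was above every day 0 mouse, beside 8.72% of all tested genes. Such segments are alike in sequence, and 1 plasma cell clone can fill a segment, so the level of a single one is uncertain. Gimap4, a GTPase of lymphocytes that was named by the size of its rise, had 1.82, 0.917, 1.43 and 2.46 TPM at day 0 and 15.5, 9.22 and 5.79 TPM at day 20. Its change was 2.01 (SE 0.32, limma adjusted p 0.0197), called also without mouse 4 or mouse 19, with an adjusted p of up to 0.0685 in the other 5 fits.

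Neutrophil and interferon genes had no called member. S100a8, a calcium-binding protein that neutrophils carry in bulk, was listed at 0 in mice 1 and 2, at 0.464 TPM in mouse 3 and at 0.780 TPM in mouse 4. It had 16.3, 68.1 and 1.33 TPM in mice 17 to 19, so that every day 20 mouse was above day 0 but spread widely (change 3.47, SE 0.86, adjusted p 0.0709). S100a8 passed the filter on low values only through the day 20 libraries, so its difference is a description. Ly6g, used as a marker of neutrophils, was at 532 to 954 TPM at day 0 and at 321 to 459 TPM at day 20 (change -0.93, adjusted p 0.0631). Other neutrophil genes were low at day 0, with means of 0.792 TPM for S100a9, 0.157 TPM for Cxcr2 and 0.126 TPM for Csf3r. The Ly6g level is therefore not read as a measure of neutrophils here. Only 5 of the 16 genes of neutrophils and acute inflammation passed the filter (median 2.59), and 7 were called without mouse 19. Il1b, at a mean of 0.425 TPM at day 0, could pass the filter only with day 20 libraries, so this median is a description. Of 20 tested interferon-stimulated genes 19 had a change above 0 (median 0.69), led by Tgtp1 (2.64, adjusted p 0.0627), and 3 were called without mouse 19. Members with a low mean at day 0, such as Tgtp1 (0.871 TPM), may have passed the filter through the day 20 libraries, so these values are a description.

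Some genes for uptake of salt and water by the colonocyte were lower at day 20. Of 23 tested genes of ion and water transport, 5 were called lower and none higher (background 0.883% lower). The median change was -0.70, and 20 of 23 changes were below 0. The called members included Atp12a, the proton-potassium pump of the distal colon, Slc9a2, a sodium-proton exchanger, Slc4a4, a sodium bicarbonate cotransporter, and Atp1b1, the beta subunit of the sodium-potassium pump.

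Atp12a (ENSMUSG00000022229, chr14:56365068-56388550) had 324, 513, 521.5 and 375 TPM at day 0 and 144, 113 and 181 TPM at day 20. The change was -1.56 (SE 0.23, limma adjusted p 0.0127). All 3 day 20 mice lay below all 4 day 0 mice. The call was lost without mouse 3 (adjusted p 0.0524) and without mouse 17 (adjusted p 0.0634). Slc4a4 had 31.1, 31.0, 44.3 and 20.8 TPM at day 0 and 12.2, 6.29 and 9.10 TPM at day 20 (change -1.68, SE 0.28, limma adjusted p 0.022). Mouse 4 was the lowest of the day 0 mice here, as it was for Slc9a2 and Atp1b1.

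Atp1b1 had 1041, 1027, 1404 and 898 TPM at day 0 and 452, 461 and 680.1 TPM at day 20 (change -1.05, SE 0.21, limma adjusted p 0.0407). The days did not overlap. Fxyd4, the small regulator of this pump in colon and kidney (ENSMUSG00000004988, chr6:117933559-117937692), was also called lower. Its level was 176, 146, 149.5 and 204 TPM at day 0 and 24.1, 28.4 and 54.5 TPM at day 20. The change of -2.29 (SE 0.27, limma adjusted p 0.00623) was called in all 7 fits that left out a mouse.

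Other transport genes were not called. Scnn1a, the alpha subunit of the epithelial sodium channel, changed by -1.29 (adjusted p 0.0538), and Scnn1g, the gamma subunit, by -1.45 (adjusted p 0.103). Slc26a2, an anion transporter, changed by -0.98 (adjusted p 0.103) and the chloride channel Cftr of secreting cells by 0.30 (adjusted p 0.593). The number of called members was 10 without mouse 4 and 7 without mouse 19, but 1, 1, 0, 1 and 2 without mice 1, 2, 3, 17 and 18. Of all tested genes 995 of 12034 were called lower without mouse 4 and 167 of 12568 without mouse 19. The number of members called lower was 6 after TMM scaling and 3 with mitochondrial genes left out of the total, where Slc9a2 and Atp1b1 were lost. Under TMM the claudin Cldn2 was called higher, which had a change of 0.64 (adjusted p 0.166) as measured.

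Some general markers of the absorptive colonocyte were also lower. Of 14 tested, 3 were called lower (background 0.883%) and none higher (median -0.67, 13 of 14 below 0). Car1, a carbonic anhydrase of the surface cells (ENSMUSG00000027556, chr3:14766216-14808368), had 3094, 4162, 4381 and 4726 TPM at day 0 and 1304, 899.7 and 2106 TPM at day 20. Its change was -1.58 (SE 0.28, limma adjusted p 0.0264), with no overlap. The water channel Aqp8 had 1469, 1685, 1606 and 1668 TPM at day 0 and 557, 989.5 and 835 TPM at day 20 (change -1.05, SE 0.20, limma adjusted p 0.0363). The sugar phosphate exchanger Slc37a2 changed by -1.20 (SE 0.23, limma adjusted p 0.0363). After TMM scaling and with mitochondrial genes left out of the total, 2 of the 3 were called, without Aqp8 and without Slc37a2 respectively.

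Car4 (-1.11, adjusted p 0.0579) and the chloride exchanger Slc26a3 (-1.09, adjusted p 0.0638) were close to the threshold. Markers such as Krt20 (-0.61, adjusted p 0.155), Ceacam1 (-0.19, adjusted p 0.722) and Guca2a (-0.15, adjusted p 0.784) had smaller changes that did not pass. Without mouse 19 there were 6 called lower (beside 167 of all 12568 tested genes) and 1 called higher (beside 375). Without mouse 4 there were 4 lower (beside 995 of all 12034), and without mouse 18 the same number as with all mice, 3. None was called without mouse 1, 2, 3 or 17, with an adjusted p of Car1 of up to 0.0919. The colonocyte falls stood beside the higher ribosomal protein share of the day 20 libraries, whose part in them was not tested.

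Of the ribosomal protein genes themselves 3 of 81 were called higher (background 0.677%), Rpl14, Rpl28 and Rps26, and 76 of 81 changes were above 0 (median 0.36). Rpl28 had 1153, 1201, 1015 and 984.9 TPM at day 0 and 2131, 2604 and 2003 TPM at day 20 (change 1.04, SE 0.17, limma adjusted p 0.0197). All 3 day 20 mice lay above day 0. Processed copies of these genes share their sequence, so the assignment of reads is uncertain.

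Transport and enzyme genes outside the list added to the falls. Slc36a1, a proton-coupled transporter of small amino acids, had 94.0, 89.0, 108 and 58.65 TPM at day 0 and 22.1, 29.4 and 27.3 TPM at day 20 (change -1.67, SE 0.22, limma adjusted p 0.0106). Kyat1, an aminotransferase that turns kynurenine into kynurenic acid (ENSMUSG00000039648, chr2:30185124-30205847), had 165, 175, 188 and 209 TPM at day 0 and 26.8, 53.5 and 60.65 TPM at day 20. Its change was -2.02 (SE 0.26, limma adjusted p 0.0086), and the days were far apart. Dpyd, the enzyme that starts pyrimidine breakdown, went from 7.71, 6.45, 6.08 and 3.91 TPM to 1.10, 0.645 and 1.01 TPM (change -1.85, SE 0.25, limma adjusted p 0.00988). Dpyd passed the filter on low values only with the day 0 libraries, where it was high, so its difference is a description.

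Kyat1 and Dpyd were called in all 7 fits that left out a mouse, and Slc36a1 in all but the one without mouse 17 (adjusted p 0.0537). Kyat1 was 1 of 2 called members among 22 tested genes of xenobiotic metabolism (background 0.883% lower, median -0.34). The other was Cyp2s1, a cytochrome P450 of epithelia, with 80.3, 79.6, 82.2 and 46.2 TPM at day 0 and 27.6, 36.7 and 28.8 TPM at day 20 (change -1.16, SE 0.23, limma adjusted p 0.0398). Mouse 4 was well below the other day 0 mice for Cyp2s1, which was called only in the fit without that mouse and reached an adjusted p of 0.139 in the other 6. Cyp2c55, the most abundant member, changed by -0.35 (adjusted p 0.57).

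Sln, the small regulator of the calcium pump of muscle (ENSMUSG00000042045, chr9:53850164-53854560), fell from 7.195, 5.42, 3.32 and 4.37 TPM to 0.276 TPM in mouse 17, a listed 0 in mouse 18 and 0.198 TPM in mouse 19. The change was -2.36 (SE 0.25, limma adjusted p 0.00458), called in every alternative in which it was tested. Sln passed the filter on low values only through the day 0 libraries, where it was high, so its difference is a description. The changes of the 10 smooth muscle genes were all below 0 (median -0.52), but none was called, with Tagln at -0.51 (adjusted p 0.308) and Actg2 at -0.63 (adjusted p 0.258). Whether muscle left on the sections had a part in the fall of Sln was not tested.

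The remaining named falls were the scaffold protein Ahnak2, the guanine nucleotide exchange factor Plekhg6, the methyltransferase Inmt and Clca4c-ps. Ahnak2 had 38.2, 31.5, 36.0 and 20.8 TPM at day 0 and 10.1, 8.20 and 7.39 TPM at day 20 (change -1.74, SE 0.24, limma adjusted p 0.0107), called in all 7 fits. Plekhg6 changed by -2.001 (SE 0.30, limma adjusted p 0.0156) and Inmt by -1.59 (SE 0.27, limma adjusted p 0.0249). The calls of Plekhg6 and Inmt held in 3 and 2 of the 7 fits that left out a mouse, with an adjusted p of up to 0.0712 and 0.0859. Clca4c-ps, named as a pseudogene of a family of similar genes, changed by -1.68 (SE 0.34, limma adjusted p 0.0425), and its level is uncertain for that reason. Of the fits that left out a mouse, it was called without mouse 4 and without mouse 19 (adjusted p up to 0.129 in the other 5), and the call was lost with mitochondrial genes left out of the total.

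Some genes of the circadian clock were lower at day 20. The clock is a loop in which Arntl and Clock switch on genes through the E-box CACGTG, among them the repressors Per and Cry and the output factors Dbp and Tef. Of 16 tested genes 5 were called lower and none higher (background 0.883% lower), and 14 changes were below 0 (median -0.83). The called genes included Dbp, Tef, Per1 and Cry2. Clock genes rise and fall over the day, and the labels used here give no hour of dissection, so day of course and hour cannot be told apart.

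Dbp (ENSMUSG00000059824, chr7:45705088-45710203) had 94.8, 89.3, 100.5 and 81.3 TPM at day 0 and 32.1, 30.1 and 36.3 TPM at day 20. The change of -1.45 (SE 0.16, limma adjusted p 0.00568) had the smallest SE of the called clock genes and was called in every alternative processing. Per1 had 13.5, 14.2, 15.2 and 7.275 TPM at day 0 and 2.89, 2.36 and 4.06 TPM at day 20 (change -1.70, SE 0.28, limma adjusted p 0.0215). Mouse 4 was the lowest day 0 mouse for both but still above day 20. Cry2 had 15.5, 13.2, 18.4 and 10.4 TPM at day 0 and 4.29, 3.85 and 5.90 TPM at day 20 (change -1.43, SE 0.24, limma adjusted p 0.022).

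Tef changed by -0.94 (SE 0.19, limma adjusted p 0.0407), a call lost with mitochondrial genes left out of the total. Not called were Arntl (-0.60, adjusted p 0.167), Clock (-0.14, adjusted p 0.768), Per2 (-1.23, adjusted p 0.0746), Nr1d1 (-0.71, adjusted p 0.133) and Usp2 (-1.54, adjusted p 0.0553). Per3 (0.14, adjusted p 0.782) and Bhlhe40 (0.16, adjusted p 0.792) were the only members above 0. Without mouse 4 there were 8 called members (beside 995 of all 12034 tested genes called lower). Without mouse 19 there were 7 (beside 167 of all 12568). Without mouse 1, 2, 3, 17 or 18 only Dbp was called, and the adjusted p of Per1 was then between 0.0589 and 0.0859.

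The E-box was found in 6 of the 21 RefSeq promoters of the listed clock genes (28.6%) and in 6.02% of all 32851. It reads the same on both strands, and a match to it cannot overlap a match to the Y box, which was itself in 4 of the 21 (19.0%). The 250 bases before the start of the called genes that hold it, Per1 and both starts of Tef, show where it lies (capitals, plus strand, GRCm38.p6). The positions are chr11:69098699-69098948 for Per1, chr15:81802423-81802672 for the first start of Tef and chr15:81811164-81811413 for the second.
Per1: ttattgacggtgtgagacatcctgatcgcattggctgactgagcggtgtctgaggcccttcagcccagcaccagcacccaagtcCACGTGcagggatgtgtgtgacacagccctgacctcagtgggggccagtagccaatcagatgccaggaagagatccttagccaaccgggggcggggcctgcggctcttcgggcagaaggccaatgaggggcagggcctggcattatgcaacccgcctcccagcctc
Tef first start: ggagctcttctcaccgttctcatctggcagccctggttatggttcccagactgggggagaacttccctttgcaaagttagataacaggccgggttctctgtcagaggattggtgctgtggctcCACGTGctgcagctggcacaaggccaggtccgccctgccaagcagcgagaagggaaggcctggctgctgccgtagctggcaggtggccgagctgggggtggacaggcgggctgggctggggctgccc
Tef second start: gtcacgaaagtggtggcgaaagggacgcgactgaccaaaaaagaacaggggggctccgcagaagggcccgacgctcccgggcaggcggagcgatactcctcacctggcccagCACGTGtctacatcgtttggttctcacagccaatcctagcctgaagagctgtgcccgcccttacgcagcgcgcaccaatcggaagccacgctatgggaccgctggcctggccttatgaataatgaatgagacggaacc

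The motif begins 166 bases before the start of Per1, and 127 and 138 bases before the starts of Tef. No E-box in the windows of Dbp and Cry2 says only that these letters are not there.

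Genes of fatty acid oxidation and ketogenesis that were not called included Cpt1a (-0.30, adjusted p 0.568), Hadhb (-0.22, adjusted p 0.574) and Ppara, the receptor that drives them (-1.18, adjusted p 0.0769). The list's median was -0.21. All 19 genes of cholesterol synthesis had a change below 0 (median -0.48) without a call.

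Hormone-producing cells showed 1 call, a higher gene, among 9 tested genes (background 0.677% higher, median 0.61, 8 above 0). Gcg, the precursor of glucagon-like peptides of L cells, had 11.0, 14.9, 12.7 and 10.2 TPM at day 0 and 27.5, 26.9 and 22.7 TPM at day 20 (change 1.03, SE 0.20, limma adjusted p 0.0362). The days did not overlap, and the call held without mouse 4 and without mouse 19 but not in the other 5 fits (adjusted p up to 0.123). Pyy, the other peptide of the L cell, changed by 1.10 (adjusted p 0.0662), Insl5 by 0.64 (adjusted p 0.173) and Chga by 0.39 (adjusted p 0.482).

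Lists that describe repair itself had no called member at day 20. The 15 proliferation genes had a median change of 0.32, with Mki67 at 0.28 (adjusted p 0.646) and Pcna at 0.33 (adjusted p 0.406). The 9 tested stem cell and Wnt target genes had a median of 0.00, and the 11 tested genes of injury-associated epithelium had a median of -0.07. Among the latter, Ly6a (-0.06, adjusted p 0.937) and S100a6 (-0.14, adjusted p 0.704) stayed near 0 while Clu had 1.94 (adjusted p 0.137). The 16 goblet genes had a median of 0.12, with Tff3 at 0.10 (adjusted p 0.912). A change that misses the threshold with 4 and 3 mice is not shown to be absent.

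Medians of the other lists without a call were 0.09 for tuft cells (8 tested), 0.10 for fibroblasts and matrix (18), 0.43 for endothelium (8) and -0.48 for enteric neurons and glia (2). They were 0.07 for the unfolded protein response (18), 0.05 for heat shock (16), -0.13 for positional homeobox genes (14), -0.95 for calcium uptake (5) and 0.16 for sex-linked genes (4). Within these, S100g, the calcium carrier of the enterocyte, changed by -1.47 (adjusted p 0.165) and the endothelial Pecam1 by 1.24 (adjusted p 0.106).

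The day 20 levels were also set against the 2 preceding time points of the mid-colon, day 14 (mice 14 to 16) and day 9 (mice 11 to 13). No gene of 12248 was called between day 20 and day 14 (0.0% called, 409 genes with an unadjusted p under 0.05). With so few mice a difference that misses the threshold is not shown to be absent. Leaving out mouse 14 gave 2 calls, both lower at day 20. Against day 9, 2534 of 12308 genes differed (20.6%), 748 higher (6.08%) and 1786 lower (14.5%) at day 20. Higher genes were 29.5% of these calls as measured and 48.4% after TMM scaling, which moved the median change of all genes from -0.15 to 0.05. The count fell to 1129 without mouse 12 and to 1334 without mouse 13. These comparisons use the same day 20 libraries as the comparison with day 0, so values are given side by side for named genes and no overlap of the calls is read as a result.

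**Figure D4:**
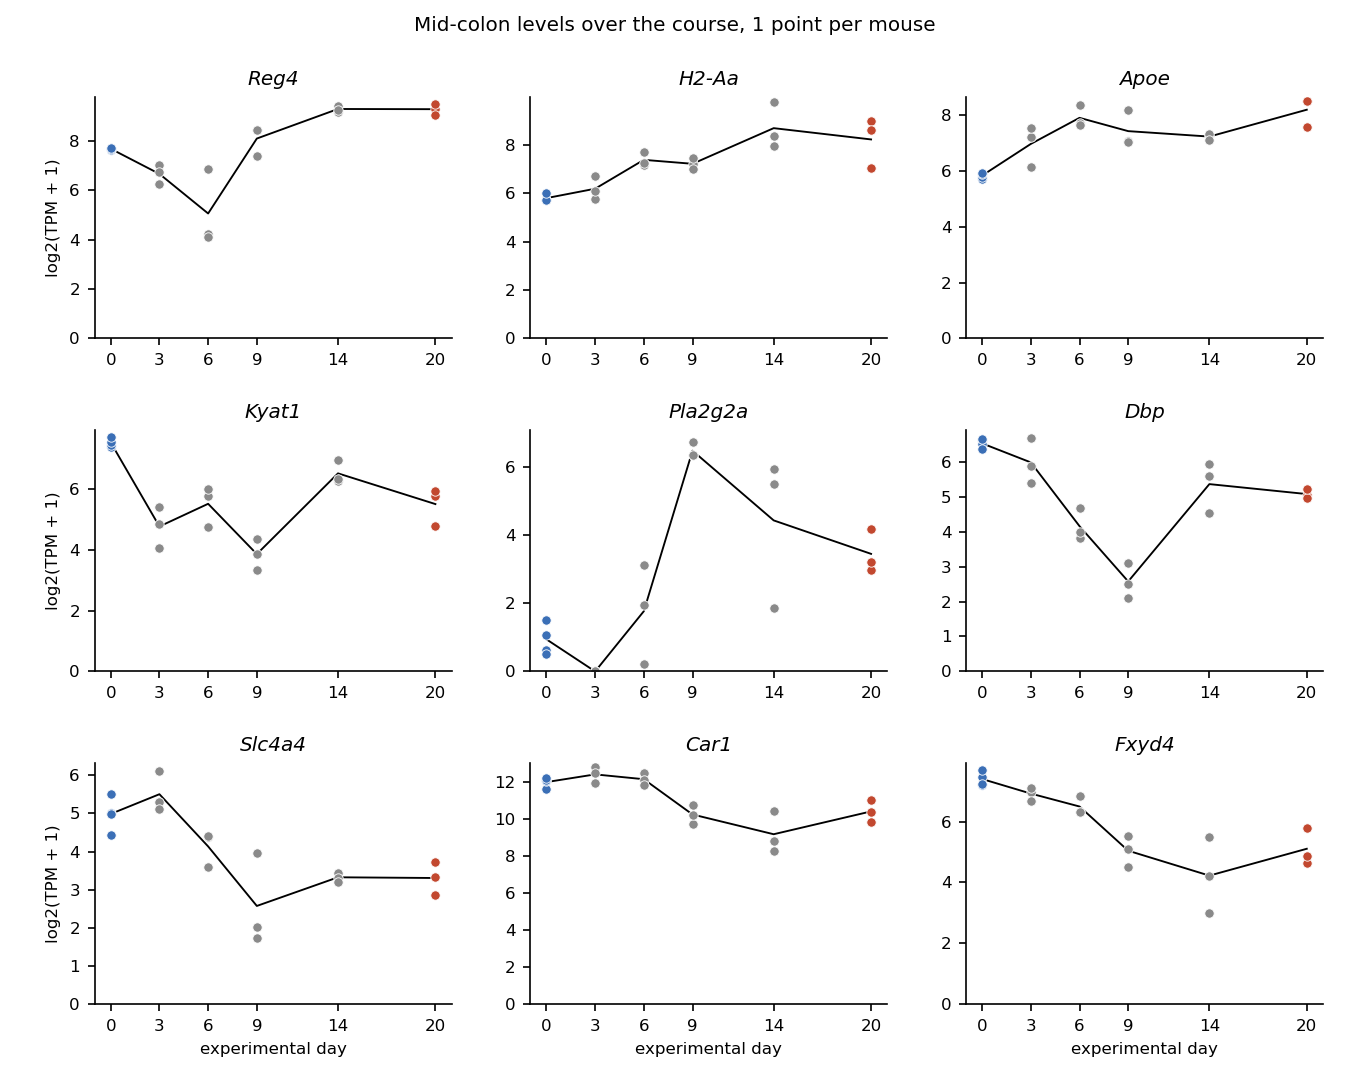
Level of 9 genes in the mid-colon at days 0, 3, 6, 9, 14 and 20, as log2(TPM + 1), with 1 point per mouse (4 at day 0, 3 at each other day) and a line through the group means. Reg4 stays above its day 0 level from day 14 on, Pla2g2a is highest at day 9 (mean 88.0 TPM), and Dbp is lowest at day 9 (mean 5.21 TPM).

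Genes differed in where day 20 stood on that course. Pla2g2a was at 0 in all 3 mice of day 3, at 105, 79.5 and 79.5 TPM at day 9 and at 2.63, 43.7 and 59.6 TPM at day 14. From day 9 to day 20 it changed by -3.02 (SE 0.32, limma adjusted p 0.00142). Serpina3n had 88.5, 62.5 and 48.3 TPM at day 9 and changed by -1.46 to day 20 (limma adjusted p 0.0188), a call that was lost without mouse 11 or mouse 12. Wfdc18 changed by -2.70 (limma adjusted p 0.0105) and Isx by -1.55 (limma adjusted p 0.00933) over the same interval. These genes were thus lower at day 20 than at day 9 and still above day 0.

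Reg4 ran differently. It had 75.4, 127 and 104 TPM at day 3 and 116, 17.6 and 16.0 TPM at day 6, then 342, 168 and 348 TPM at day 9 and 579.5, 684 and 609 TPM at day 14. It was higher at day 20 than at day 9 by 1.19 (SE 0.30, limma adjusted p 0.0249) and stood at -0.01 (SE 0.21) relative to day 14. Khdc1a was also higher at day 20 than at day 9 (change 1.18, limma adjusted p 0.0211). Both genes therefore stood further from day 0 at day 20 than at day 9. The Reg4 difference was not called without mouse 12, 17 or 18, nor that of Khdc1a without mouse 11, 13 or 17.

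Among the falls, Dbp had 3.32, 4.72 and 7.57 TPM at day 9 and rose by 2.50 (SE 0.27, limma adjusted p 0.00143) to day 20, where it was still below day 0. Kyat1 had 13.7, 9.14 and 19.5 TPM at day 9 and rose by 1.65 (limma adjusted p 0.0141), which was lost without mouse 12. Atp12a went the other way, with 228, 234 and 293 TPM at day 9 and a change of -0.80 (limma adjusted p 0.0367) to day 20. This call was lost after TMM scaling, with mitochondrial genes left out of the total, and in every fit that left out a mouse except the one without mouse 19. Fxyd4 (0.06, adjusted p 0.919) and Car1 (0.17, adjusted p 0.782) gave no call between day 9 and day 20.

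The rectum of the same 7 mice served as a second section under the same contrast. Day 20 differed from day 0 in 973 of 12677 genes there (7.68%), 354 higher (2.79%) and 619 lower (4.88%), and the count ranged from 52 to 2873 when 1 library was left out. It was 52, 58, 53 and 282 without mice 1 to 4, and 485, 234 and 2873 without mice 17, 18 and 19. Of the 82 genes higher in the mid-colon, 54 were also called higher in the rectum, which is 65.9% of the mid-colon and 15.3% of the rectal calls. Of the 107 lower genes 64 were also called lower, which is 59.8% and 10.3%. None was called in the opposite direction. Both sections came from the same mice, so a trait of a mouse enters both.

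**Figure D5:**
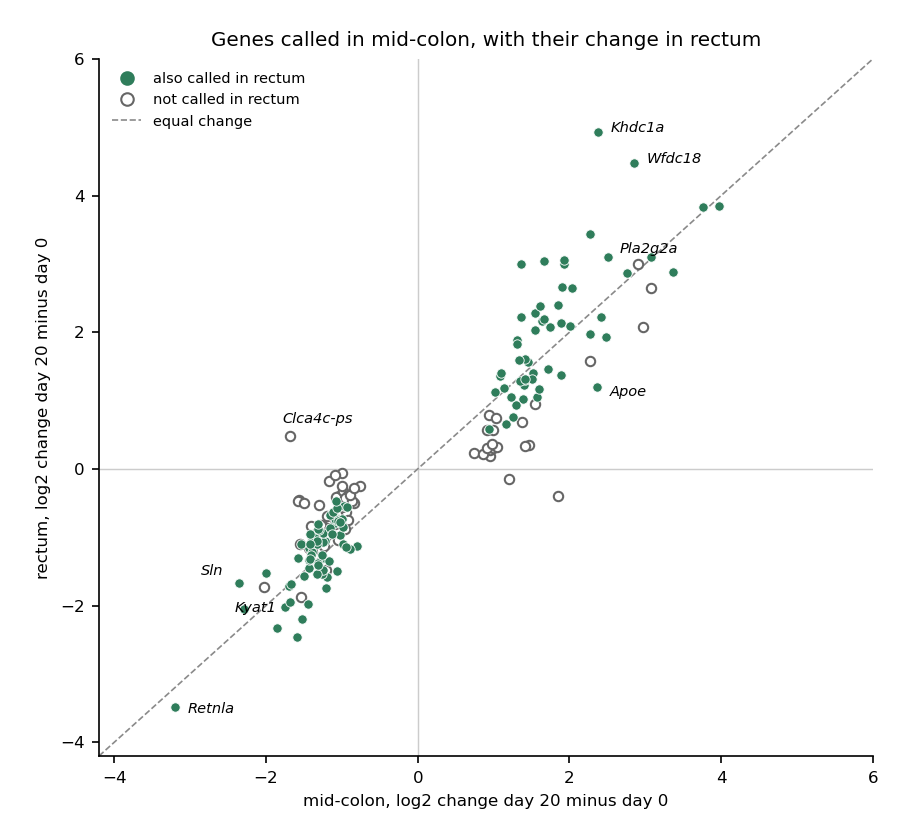
Change at day 20 in mid-colon (horizontal) and rectum (vertical) of the same mice, in log2(TPM + 1), for the genes called in the mid-colon and tested in the rectum. Filled points were called in both sections and the dashed line marks equal change. Of 76 higher genes tested in the rectum 74 had a change above 0 there, and of 107 lower genes 106 had a change below 0.

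The median change of the higher genes was 1.52 in the mid-colon and 1.43 in the rectum, and that of the lower genes was -1.21 and -0.95. Retnla (-3.48 in the rectum, limma adjusted p 0.0187), Fxyd4 (-2.06, limma adjusted p 0.0102), Dbp (-1.97, limma adjusted p 0.0175) and Reg4 (1.17, limma adjusted p 0.0136) were called in both sections. In the rectum the Fxyd4 call held in all 7 fits that left out a library. Those of Retnla and Dbp were lost without mouse 1, 2 or 3, that of Retnla also without mouse 18, and that of Reg4 without mouse 1 or 3. Among the clock genes 5 of 17 were called lower in the rectum (4.88% of all genes there). Among the macrophage genes 6 of 15 were called higher (2.79% of all genes there).

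Whether the response differed between sections was tested as an interaction over 13234 genes. A single gene was called (0.00756%), the T cell receptor segment Trbv25 (ENSMUSG00000104473, chr6:41221931-41222203). It was listed at 0 in all 7 mid-colon libraries and in the day 0 rectum, and at 2.88, 7.445 and 9.665 TPM in the rectum of mice 17, 18 and 19 (difference 2.82, SE 0.37, limma adjusted p 0.0327). It passed the filter on low values only through the 3 rectal libraries where it was high, so its difference is a description. Of the 14 fits that left out a library, 12 called no gene, and none of the 11 in which Trbv25 was tested called it. No gene was called by limma after TMM scaling (864 with an unadjusted p under 0.05) or with a filter of at least 5 TPM (434). With the mouse as a block in the fit, 5 genes were called, all with the larger change in the rectum, and Trbv25 had an adjusted p of 0.0427. The other 4 were Saa3, an acute-phase protein (difference 4.19, adjusted p 0.00959 with the block, 0.848 without), Zbp1, a sensor of nucleic acids (1.4, adjusted p 0.0427 with the block, 1.0 without), Gm6741 and Gm16089. None of the 189 mid-colon genes was called in the interaction without the block. The unadjusted p was under 0.05 for 22 of the higher and 19 of the lower ones, and the smallest adjusted p was 0.378.

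Several named genes were called in the mid-colon and not in the rectum, but the difference between sections did not pass for them. Car1 had 3352, 3465, 4883 and 4061 TPM in the day 0 rectum and 3177, 1985 and 3574 TPM at day 20 (change -0.46, adjusted p 0.201; difference from the mid-colon 1.12, adjusted p 0.848). Atp12a changed by -0.46 in the rectum (adjusted p 0.212; difference 1.10, adjusted p 0.848). The change of Clca4c-ps in the rectum was 0.49 (adjusted p 0.104; difference 2.16, adjusted p 0.409). Wfdc18 and Khdc1a had larger changes in the rectum, 4.48 and 4.93, with differences of 1.62 (adjusted p 0.976) and 2.55 (adjusted p 0.745) that did not pass either.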

How the data were processed

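Transcript abundances were taken from the authors' deposited table, in TPM, a signal scaled to a fixed total per library. Per the submitters' processing notes, CASAVA and kallisto were used and the build is mm10. No versions are given in the sources used here. Per the labels' protocols, libraries were stranded mRNA, read as 75 bp single ends. From 126860 rows, 37344 empty ones and 1318 repeats were dropped. The remaining 88198 transcripts were summed to 30452 genes, and each library then summed to 1000000 TPM. A value of 0 may be a failed estimate. The depth is unknown, so no counting interval is given.

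The deposited TPM values were turned into log2(TPM + 1) and fitted with limma 3.58.1 in R 4.3.3, with a prior following mean expression and only the groups compared in the fit. Calls are Benjamini-Hochberg adjusted p under 0.05, also where limma is not named beside a p. Alternatives were a fold of 2, a pseudocount of 0.1, no filter, a filter of 5 TPM, TMM factors (unweighted, from genes of at least 1 TPM, trimming 30% of log ratios and 5% of levels at each end), totals without mitochondrial or immunoglobulin genes, all days in 1 fit, another prior, each mouse left out, and the mouse as a block in the interaction. Added after seeing the data were a fit without mice 4 and 19 and one with the mitochondrial share as covariate. The procedure was also run on simulated data in which genes varied independently of each other. That run does not show the error rate in these libraries. Both sections of a mouse carry its number in the labels. Their deviations from the group means correlated across genes at a mean r of 0.265 (from -0.01 in mouse 3 to 0.54 in mouse 19).

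Named genes were the called members of 33 lists (or the 2 most abundant members where fewer than 2 were called) and the 12 largest rises and falls. Results on a few genes are not reported here. Other genes are said to have been chosen after their values were seen, and further list members are given beside them as examples. Members, lists and rules were chosen with earlier results of these data known. Python 3.11.15, pandas 2.3.3, scipy 1.17.1 and matplotlib 3.10.9 were used for the rest.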

Additional observations from a re-analysis of the deposited data

Results flagged for a closer look

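A mouse stood apart from the other uninjured mice in 4 of 49 groups of 4 values examined, each time mouse 4 of day 0. Chance gives about 1 in 20 for any mouse of a group. The groups share their mice and are not independent, so the count is a description. Mouse 4 had the lowest Cyp2s1 (46.2 TPM beside 79.6 to 82.2 TPM) and the lowest Per1 (7.27 TPM beside 13.5 to 15.2 TPM). It had the highest H2-Aa (63.8 TPM beside 51.1 to 52.1 TPM), and the largest share of TPM in its 10 most abundant genes (31.1%). For Cyp2s1, Per1 and H2-Aa it still lay on the day 0 side of all day 20 mice.

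Trbv25, a T cell receptor segment, was the gene called for a difference between the sections at day 20 (difference 2.82, limma adjusted p 0.0327). It was above 0 in the rectum of the 3 day 20 mice and at 0 in the other 11 libraries, and it entered the test only through those 3. It was not called after TMM scaling, with a pseudocount of 0.1 or in any of the 11 fits without 1 library in which it was tested, and 12 of all 14 such fits called no gene.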

How the results depend on the processing

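No paired analysis was possible because day 0 and day 20 are different mice, except for the interaction, where the mouse as a replicate block gave 5 calls in place of 1. For the mid-colon at day 20 the 189 calls became 22 with no filter on low values (of which 15 were among the 189), 556 with TMM factors and 1014 with all days in the fit. They became 1181 without mice 4 and 19 and 880 with the mitochondrial share as covariate, both chosen after seeing the data, and 31 to 1200 without 1 mouse. No change of the 189 turned its sign in any alternative in which it was tested, but the same libraries had chosen these genes. Of the 82 and 107 genes, 80 and 102 were also called with TMM factors, and 78 and 81 without mitochondrial genes in the total. Day 20 against day 14 gave 0 to 2 calls without 1 mouse. Day 20 against day 9 gave 1482 with no filter, 3945 with all days in the fit and 1129 to 2384 without 1 mouse. The rectum gave 384 at a fold of 2, 202 with no filter, 1647 with TMM factors and 52 to 2873 without 1 mouse. The interaction gave 1 with a pseudocount of 0.1, 3 with no filter, 0 at 5 TPM, 0 with TMM factors and 0 to 25 without 1 library. The 25 came without the rectal library of mouse 19. Over 96 named genes and 1710 such refits, 1463 kept their side of the threshold, 191 lost a call, 56 gained one and 0 reversed. The causes were not tested.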

Other observations

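Beyond the genes named by the rule, single called genes are given here that were chosen after their values were seen, on no fixed list. Fcer1g, the signalling chain shared by Fc receptors, had 10.6, 11.4, 11.4 and 11.1 TPM in mice 1 to 4 and 44.8, 36.5 and 35.8 TPM in mice 17 to 19 (change 1.72, SE 0.17, limma adjusted p 0.00447). The uninjured mice lay within 1 TPM of each other, and the call was made in every alternative. The receptors Fcgr3 (1.14, limma adjusted p 0.022) and Fcgr4 (1.88, limma adjusted p 0.0363), the pore-forming Mpeg1 (1.51, limma adjusted p 0.0161) and the chemokine Ccl8 (1.90, limma adjusted p 0.0184) were higher too. Nov, a secreted matrix-associated protein, had 2.92, 3.62, 2.72 and 5.225 TPM at day 0 and 16.8, 14.8 and 15.8 TPM at day 20 (change 1.89, SE 0.23, limma adjusted p 0.00729). The BMP antagonist Grem1 (1.46, limma adjusted p 0.0215) and the growth factor Igf1 (1.55, limma adjusted p 0.0215) were also higher. B2m, the light chain of MHC class I, had 495, 444, 389 and 473 TPM at day 0 and 949, 1714 and 851 TPM at day 20 (change 1.31, limma adjusted p 0.0295).

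Slc15a1, the peptide transporter of the brush border, had 293, 294.5, 349 and 261.5 TPM at day 0 and 104, 133 and 119 TPM at day 20 (change -1.33, SE 0.17, limma adjusted p 0.00763), called in every alternative. The sodium-glucose transporter Slc5a1 (-1.16, limma adjusted p 0.0127) and the serotonin transporter Slc6a4 (-1.31, limma adjusted p 0.0119) fell as well. Slc6a4 had 21.6 to 22.9 TPM over the 4 uninjured mice and 7.00 to 9.82 TPM over the 3 mice of day 20. The prostaglandin synthase Hpgds (-1.58, limma adjusted p 0.0127) and the prostaglandin carrier Slco2a1 (-1.50, limma adjusted p 0.0185) were lower. Tsc22d3, a gene switched on by glucocorticoids, had a change of -1.41 (limma adjusted p 0.0119), which was lost without mouse 17 (adjusted p 0.053). Without mouse 17, Fcgr3, Fcgr4, Mpeg1, Ccl8, Grem1, Igf1, B2m, Slc5a1, Slc6a4, Hpgds and Slco2a1 were not called either, with adjusted p up to 0.111.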
